A study of Caenorhabditis elegans with 2 samples.

Results

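The 10 heterochronic genes described here, nhl-2, puf-9, myrf-1, lep-2, lin-14, lin-28, lin-29, lin-41, lin-42 and hbl-1, are 10 of the 19973 nuclear protein-coding genes of the Caenorhabditis elegans annotation. They were chosen by name as timing genes, and with the authors' peak lists at some of them already known, so the presence of a peak in the conservative list is part of how they were selected and is given as a description with no test. For each gene, all peaks with a summit in its annotated span or in the 2000 bp upstream of its 5′ end were collected. The study mapped where the DM domain protein DMD-8 sits in the genome by chromatin immunoprecipitation (ChIP), in which an antibody against GFP recovers DNA fragments attached to the tagged protein. All samples were whole L4 larvae of strain OP775 aged 48.5 hours, and both carried the integrated transgene wgIs775, which holds dmd-8::TY1 EGFP 3xFLAG and an unc-119(+) copy, in a background with the unc-119 (tm4063) allele. The hatchlings had been starved at L1 after bleaching to bring them into step, and chromatin was sheared by sonication. The single group had 2 biological replicates, and the control data were not analysed here, so peaks at the 10 genes are set beside the rest of the genome and not beside another condition. The labels give no sex for the worms and no level of the tagged copy relative to the endogenous protein. Since whole animals were used, the tissue in which a peak arose cannot be told.

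The heterochronic pathway sets the order in which cells take on stage-specific fates as the larva grows. Early-acting factors such as LIN-14, LIN-28 and HBL-1 hold cells in early fates, and they are turned down as the microRNA lin-4 and the let-7 family accumulate. Late in larval life LIN-41 falls and LIN-29 drives the change of the epidermis from larval to adult. DM domain proteins related to Doublesex and MAB-3, of which DMD-8 is a member, act in sexual development, and the DM genes dmd-3 and mab-3 act below the timing pathway in the shaping of the male tail tip.

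The authors deposited a conservative list of 1537 peaks made from both replicates, thresholded lists of 629 peaks for replicate 1 and 545 for replicate 2, and longer ranked lists of 95232 peaks for the pooled replicates, 82083 for replicate 1 and 72371 for replicate 2. Each peak has a signal value with no unit, which is read here only as a rank within its own list. The ranked lists also carry the irreproducible discovery rate (IDR), which is low where the rank of a peak repeats between the compared data sets. An IDR in a single replicate's list is not read here as agreement between the replicates. In the pooled ranked list the IDR of conservative peaks did not exceed 0.01. Read depth is unknown from peak lists.

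Of the 10 genes, 7 held a conservative peak, namely nhl-2, puf-9, myrf-1, lep-2, lin-14, lin-29 and lin-42, against 7.18% of all protein-coding genes. myrf-1 held 2 such peaks and the other 6 genes 1 each. Within the 2000 bp upstream, 4 of the 10 genes (nhl-2, puf-9, myrf-1 and lep-2) had a conservative summit, against 3.87% of all protein-coding genes. lin-28, lin-41 and hbl-1 had none. Because conservative peaks helped to select the genes, the difference between these shares is not a finding.

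The sequences under 6 of the 8 conservative peaks are shown because they carry the points made below on promoters, repeats and base composition. Each is 300 bp centred on the summit, read 5′ to 3′ along the strand of the gene from the RefSeq genome of the assembly WBcel235 (ce11). In all but the lep-2 window, capitals mark matches to GAGAGA or CCGCCC, and a GAGAGA on the opposite strand reads TCTCTC. The lin-14 window, shown as a contrast, holds no match to either. In the lep-2 window, capitals mark a run of 25 bp that occurs 2 times in succession. A further, inexact copy of this run follows directly in small letters. The nhl-2 window is chrIII:4899754-4900053 on the minus strand, the puf-9 window chrX:5841166-5841465 on the plus strand and the myrf-1 promoter window chrII:10502743-10503042 on the minus strand. The lep-2 window is chrIV:991416-991715 on the plus strand, the lin-14 intron window chrX:11477680-11477979 on the plus strand and the lin-42 intron window chrII:1246892-1247191 on the minus strand.
nhl-2 promoter: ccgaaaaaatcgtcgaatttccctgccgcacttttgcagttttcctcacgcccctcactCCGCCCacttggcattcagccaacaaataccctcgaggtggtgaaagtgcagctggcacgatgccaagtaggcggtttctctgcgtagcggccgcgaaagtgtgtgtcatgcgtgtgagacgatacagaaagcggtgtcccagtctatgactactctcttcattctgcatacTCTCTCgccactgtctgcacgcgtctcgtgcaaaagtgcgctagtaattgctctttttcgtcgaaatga
puf-9 promoter: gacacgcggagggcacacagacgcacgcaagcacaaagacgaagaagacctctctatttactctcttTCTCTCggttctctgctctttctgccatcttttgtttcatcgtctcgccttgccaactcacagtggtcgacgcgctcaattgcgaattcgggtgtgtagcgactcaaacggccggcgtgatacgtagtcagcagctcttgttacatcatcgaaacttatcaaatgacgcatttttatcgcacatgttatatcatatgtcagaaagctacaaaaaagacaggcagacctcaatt
myrf-1 promoter: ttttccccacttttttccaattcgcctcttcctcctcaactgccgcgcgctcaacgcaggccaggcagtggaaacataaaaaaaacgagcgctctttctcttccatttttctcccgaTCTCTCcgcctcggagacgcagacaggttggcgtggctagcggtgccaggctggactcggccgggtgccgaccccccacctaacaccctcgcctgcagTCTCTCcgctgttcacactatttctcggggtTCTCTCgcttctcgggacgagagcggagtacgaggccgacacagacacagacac
lep-2 promoter: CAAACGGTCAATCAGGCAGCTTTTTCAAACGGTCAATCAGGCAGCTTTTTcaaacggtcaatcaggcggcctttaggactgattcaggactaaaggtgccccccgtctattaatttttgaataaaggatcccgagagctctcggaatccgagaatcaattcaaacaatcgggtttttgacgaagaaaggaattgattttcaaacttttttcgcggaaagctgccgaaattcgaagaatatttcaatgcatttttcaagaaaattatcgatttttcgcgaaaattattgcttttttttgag
lin-14 intron: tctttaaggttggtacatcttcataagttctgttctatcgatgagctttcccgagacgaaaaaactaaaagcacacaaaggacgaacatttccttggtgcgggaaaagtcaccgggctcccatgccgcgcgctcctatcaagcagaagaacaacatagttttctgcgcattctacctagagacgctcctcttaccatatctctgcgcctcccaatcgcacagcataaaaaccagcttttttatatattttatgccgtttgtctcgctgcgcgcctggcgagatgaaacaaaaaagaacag
lin-42 intron: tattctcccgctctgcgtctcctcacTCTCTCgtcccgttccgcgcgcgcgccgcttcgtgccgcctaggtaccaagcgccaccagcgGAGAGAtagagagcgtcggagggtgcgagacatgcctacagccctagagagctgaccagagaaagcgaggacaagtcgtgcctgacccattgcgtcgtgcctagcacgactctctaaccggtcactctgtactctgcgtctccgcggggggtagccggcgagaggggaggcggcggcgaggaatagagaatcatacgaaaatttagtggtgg

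Among the genes that act through RNA, nhl-2 encodes a TRIM-NHL protein that assists the microRNA silencing complex. Its conservative peak lay at chrIII:4899764-4900043, with the summit 819 bp upstream of the nhl-2 5′ end. The 5′ end nearest to that summit was that of the neighbour tag-340, at 604 bp, so the peak was nearer to the start of that gene. Its signal was 96.1 in the conservative list, rank 635 of 1537, with a pooled IDR of 0.00642. In the replicates' ranked lists its signal was 58.6 in replicate 1, within the top 0.748% of that list, and 31.7 in replicate 2, at 7.66% of that list. The IDR was 0.00488 in replicate 1 and 0.491 in replicate 2, so the peak stood high with a low IDR in replicate 1 and lower in replicate 2. It was also in the thresholded list of replicate 1, at rank 481 of 629.

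puf-9 encodes a Pumilio-family RNA-binding protein that takes part in the repression of hbl-1. Its conservative summit was 276 bp upstream of the 5′ end, at chrX:5841176-5841455, and was nearer to that 5′ end than to any other. The signal was 87.5 (rank 849 of 1537, pooled IDR 0.00443). Replicate 1 had 48.9 at the top 1.29% of its list with an IDR of 0.0447, and replicate 2 had 35.4 at 4.54% with an IDR of 0.459. As at nhl-2, the higher rank was in replicate 1. A further pooled peak lay in a puf-9 intron 442 bp inside the gene, with a signal of 62.8 and an IDR of 0.0304. In replicate 2 the puf-9 peak of lowest IDR was another upstream one, at -1732 bp, with a signal of 42.6 and an IDR of 0.110, where the pooled list had an IDR of 0.199.

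lin-28, an RNA-binding protein that blocks let-7 maturation, and lin-41, a TRIM-NHL protein whose message is a let-7 target, had no conservative peak. Both genes lie on chromosome I. lin-28 held 3 pooled ranked peaks, none of them upstream of the gene, and the lowest IDR was 0.181, at a peak in the 3′ UTR with a signal of 51.5. In the replicates the lowest IDR at lin-28 was 0.722 in replicate 1 and 0.501 in replicate 2. lin-41 held 7 pooled ranked peaks, again none upstream, with the lowest IDR, 0.125, in a coding exon 1208 bp inside the gene (signal 63.3, rank 4036 of 95232). At that exon replicate 1 had a signal of 20.8 with an IDR of 0.852, and replicate 2 a signal of 35.3 with an IDR of 0.206. The lowest IDR at lin-41 in replicate 1 was 0.688, in the 3′ UTR. At both genes every ranked peak thus stood far above the IDR of the conservative peaks.

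lep-2 encodes a Makorin, which times the shaping of the male tail tip and is needed for the decline of LIN-28. Its conservative peak, at chrIV:991426-991705, had its summit 717 bp upstream of the lep-2 5′ end and 1114 bp from that of the neighbour egrh-2. The signal of 75.7 was the lowest of the 8 (rank 1261 of 1537, pooled IDR 0.00597). Here the higher rank was in replicate 2, with a signal of 41.6 at 2.07% of its list and an IDR of 0.0133, against 37.2 at 4.32% and an IDR of 0.727 in replicate 1. The replicate 1 summit was 103 bp away from the pooled one, the widest offset of the 16 replicate summits. The lep-2 peak was absent from the authors' optimal list, which held the peaks of the other 6 genes.

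myrf-1, a transcription factor that is released from a membrane and promotes lin-4 transcription, was the gene with 2 conservative peaks. Its promoter summit was 352 bp upstream of the 5′ end (chrII:10502753-10503032) with a signal of 87.2, rank 858 of 1537 and a pooled IDR of 0.00330. Its intron summit was 724 bp inside the gene, in the first intron (chrII:10501677-10501956), with a signal of 84.0, rank 967 and a pooled IDR of 0.00348. The replicates were close in rank at the promoter, with signals of 41.9 (2.44% of the list) in replicate 1 and 42.5 (1.89%) in replicate 2. At the intron they were 39.5 (3.22%) in replicate 1 and 46.3 (1.38%) in replicate 2. Yet neither replicate's own IDR was at 0.05 or less: they were 0.164 and 0.155 at the promoter and 0.206 and 0.106 at the intron, in replicates 1 and 2. Both myrf-1 peaks were in the conservative list and in neither replicate's own thresholded list. The same held for the conservative peaks of puf-9, lep-2, lin-29 and lin-42.

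lin-14, a nuclear DNA-binding factor and the classic lin-4 target, held 39 pooled ranked peaks over a window of 22.3 kb. Its conservative peak was deep in an intron at chrX:11477690-11477969, 12270 bp inside the gene and at -2531 bp from the 5′ end of the shorter transcript T25C12.1b.1. No 5′ end of another protein-coding gene was nearer than 9954 bp (spp-9). The signal was 91.1 (rank 752 of 1537), and its pooled IDR of 0.00956 was the highest of the 8 and thus the one just inside the limit. Replicate 1 ranked it at 0.875% (signal 55.4, IDR 0.00532, rank 532 of 629 in its thresholded list) and replicate 2 at 9.45% (signal 30.4, IDR 0.719). This was the widest gap in rank between the replicates among the 8 peaks. Replicate 1 had a further thresholded peak in lin-14, 1859 bp inside the gene (signal 45.3, rank 592 of 629), whose pooled counterpart had a signal of 68.1 and an IDR of 0.0155. Replicate 2 had a signal of 29.2 there, with an IDR of 0.561. In replicate 2 the lin-14 peak of lowest IDR was a different one, 9299 bp inside the gene (signal 50.0, IDR 0.0117), where replicate 1 had a signal of 16.5 with an IDR of 0.667.

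lin-29, an EGR-type zinc finger factor of the larval-to-adult switch, had, of the 8 conservative peaks at the 10 genes, the one of lowest IDR, 0.00196. It lay at the other end of the gene, in the 3′ UTR at chrII:11917634-11917913, 17569 bp from the lin-29 5′ end. The nearest 5′ ends were those of hmg-12 at 1261 bp and vps-15 at 1922 bp. The signal was 95.4 (rank 661 of 1537), and it was 48.6 in replicate 1 (1.33%, IDR 0.0218) and 43.0 in replicate 2 (1.82%, IDR 0.0283). It was the only one of the 8 peaks with an IDR of 0.05 or less in both replicates' ranked lists. Introns of lin-29 held 2 further pooled peaks just outside the limit, with signals of 79.7 (IDR 0.0133) and 69.1 (IDR 0.0168). At the first of these sites replicate 1 had a signal of 30.9 (9.76% of its list) with an IDR of 0.716, and replicate 2 a signal of 47.2 (1.30%) with an IDR of 0.0249, so the site ranked higher in replicate 2.

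lin-42, the worm homologue of Period, has 7 annotated transcripts with 5 different 5′ ends. Its conservative peak lay in an intron of the transcripts that start farthest upstream, at chrII:1246902-1247181, 5317 bp inside the gene and at -3007 bp from the 5′ end shared by the transcripts F47F6.1b and F47F6.1c. The signal was 80.6 (rank 1079 of 1537, pooled IDR 0.00213). It was 43.7 in replicate 1 (2.03%, IDR 0.0126) and 47.5 in replicate 2 (1.27%, IDR 0.0554), so both replicates ranked it similarly. A second intron peak, 10959 bp inside the gene, had a signal of 72.2 and a pooled IDR of 0.0422.

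hbl-1, a hunchback-like zinc finger factor and a let-7 family target, lies 13836 bp upstream of puf-9 on the X chromosome with 3 protein-coding genes between them. None of its 12 pooled ranked peaks was in the conservative list. The lowest IDR, 0.0484, was at an upstream peak at -1910 bp with a signal of 59.1 (rank 5580 of 95232). In the replicates the same site had a signal of 29.9 with an IDR of 0.355 in replicate 1 and 28.5 with an IDR of 0.352 in replicate 2. hbl-1 thus entered only the pooled list at the 0.05 limit and neither replicate's.

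**Figure D1:**
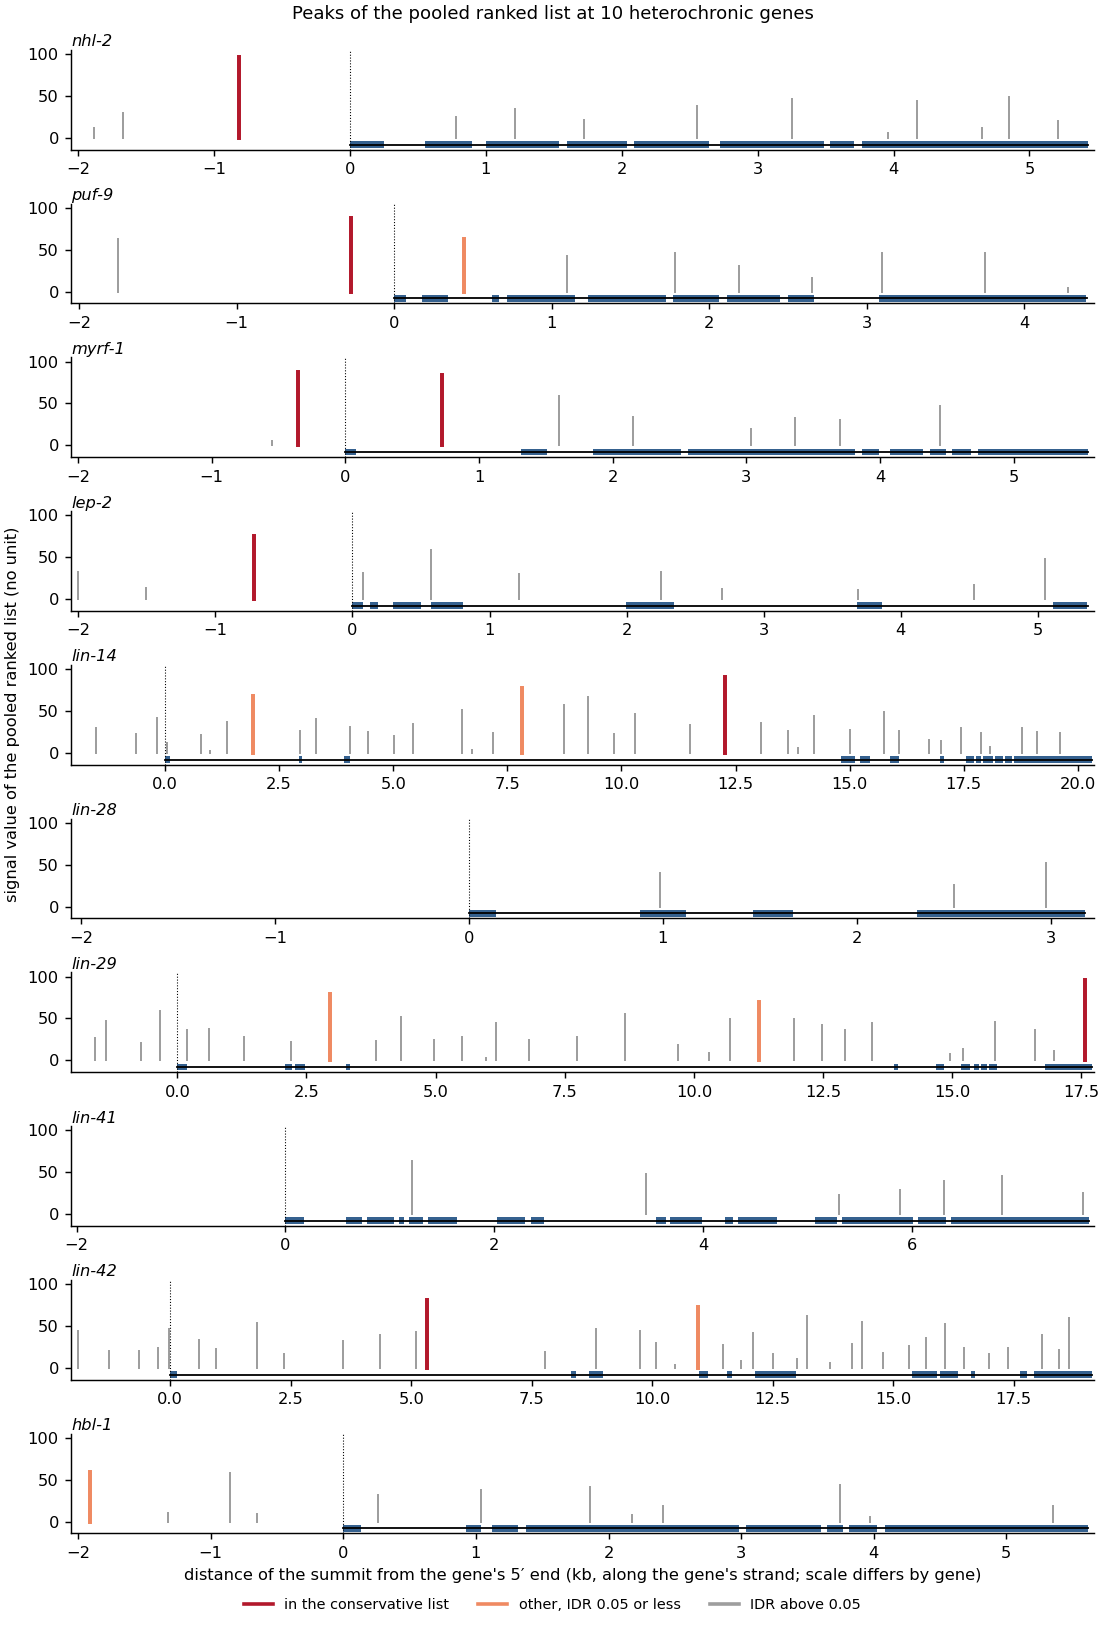
Signal (vertical axis, no unit) of every peak of the pooled ranked list against its distance in kb from the 5′ end of each of the 10 genes, with the gene as a black line and its exons as blue boxes; the horizontal scale differs by gene. Red lines are the 8 conservative peaks, orange lines the other 7 peaks with an IDR of 0.05 or less and grey lines the rest; the red lines stand upstream of nhl-2, puf-9, myrf-1 and lep-2, in introns of myrf-1, lin-14 and lin-42 and at the far end of lin-29.

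Across the 10 windows the pooled ranked list had 174 peaks, between 3 at lin-28 and 39 at lin-14, of which 15 had an IDR of 0.05 or less. These 15 fell in 8 of the 10 genes, the 7 above and hbl-1, against 19.4% of all protein-coding genes. In the ranked list of replicate 1, 5 of the 10 genes (nhl-2, puf-9, lin-14, lin-29 and lin-42) had a peak at that limit, against 6.43% of all genes. In replicate 2 it was 3 of the 10 (lep-2, lin-14 and lin-29), against 5.26% of all genes. lin-14 and lin-29 were the genes on both replicates' lists, but for lin-14 the peaks were at different sites. In the thresholded lists, 2 of the 10 genes (nhl-2 and lin-14) had a peak in replicate 1, against 2.88% of all genes, and 0 of the 10 in replicate 2, against 2.55% of all genes. The conservative list that helped to select the genes was made from these same replicates. The differences between the shares in the pooled and replicate lists are therefore not a finding.

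At the limit of the conservative list the 10 genes showed no gap in signal. The peaks just inside it were those of lin-14 (IDR 0.00956, signal 91.1) and nhl-2 (IDR 0.00642, signal 96.1). Those just outside it were the lin-29 intron peak with an IDR of 0.0133 and a signal of 79.7 and the lin-14 intron peak with an IDR of 0.0155 and a signal of 68.1. The lep-2 peak, inside the limit, had a lower signal (75.7) than that lin-29 peak. Over the whole pooled list 141 peaks with an IDR of 0.01 or less were not in the conservative list, and none of these lay at the 10 genes.

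**Figure D2:**
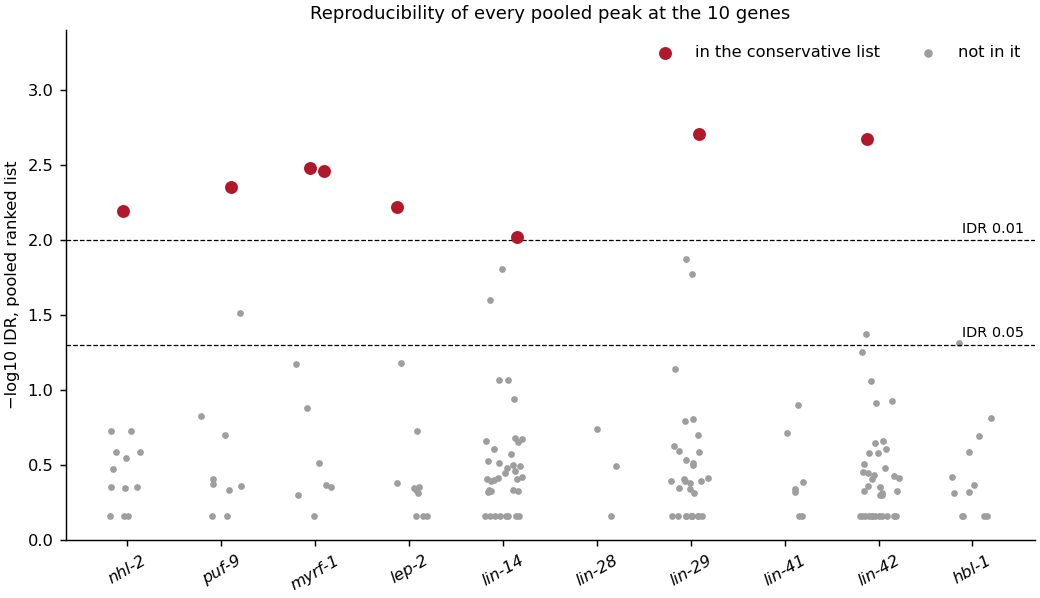
The −log10 IDR of each pooled ranked peak (vertical axis, higher is more reproducible) for the 10 genes along the horizontal axis, with red points for conservative peaks, grey points for the rest and dashed lines at IDR 0.01 and 0.05. All 8 red points lie above the 0.01 line with lin-14 closest to it, and no peak of lin-28 or lin-41 reaches the 0.05 line.

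Each of the 8 conservative peaks overlapped a ranked peak in both replicates by 1 bp or more. The conservative list was made from both replicates, so this overlap is no separate support for the peaks. The replicates differed in which genes they ranked high. At nhl-2, puf-9, lin-14 and lin-29 the signal rank was higher in replicate 1, and at lep-2, lin-42 and both myrf-1 peaks it was higher in replicate 2. The rank gap was widest at lin-14 and nhl-2 and narrowest at lin-29 and the myrf-1 promoter. With 2 replicates no p-value was computed for these gaps.

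**Figure D3:**
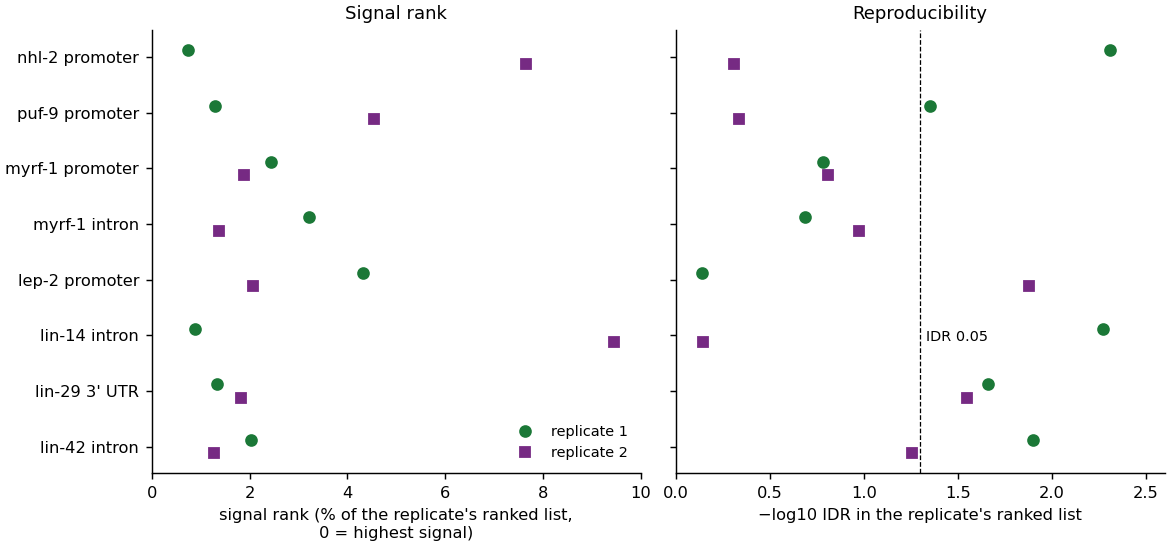
Signal rank as a percent of the replicate's ranked list (left, 0 is the highest signal) and −log10 IDR (right, dashed line at IDR 0.05) of the 8 conservative peaks, with green circles for replicate 1 and purple squares for replicate 2. lin-14 and nhl-2 have the widest rank gaps (0.875% against 9.45% and 0.748% against 7.66%), and only the lin-29 peak lies right of the line in both replicates.

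By position, 4 of the 8 conservative peaks were upstream (50%), 3 in introns (37.5%), 1 in a 3′ UTR and 0 in coding exons. Over all pairs of a protein-coding gene and a conservative peak, 49.6% were upstream, 27.3% in introns, 2.68% in 3′ UTRs and 17.8% in coding exons. The 15 pooled peaks at IDR 0.05 or less comprised 5 upstream, 9 in introns, 1 in a 3′ UTR and 0 in coding exons. Over all genes 41.1% of such pairs were upstream, 25.2% in introns, 2.69% in 3′ UTRs and 28.6% in coding exons. Of all 174 pooled ranked peaks at the 10 genes, whatever their IDR, 85 were in introns (48.9%), 42 in coding exons (24.1%), 26 upstream (14.9%), 17 in 3′ UTRs (9.77%) and 4 in 5′ UTRs (2.30%). Over all protein-coding genes the shares of such pairs were 27.5% in introns, 31.4% in coding exons, 36.1% upstream, 2.99% in 3′ UTRs and 1.89% in 5′ UTRs. The summed peaks of the 10 genes thus had a higher share in introns and a lower one upstream than those of all genes. The windows of the 10 genes were longer. Most of the pooled intron peaks lay in lin-14, lin-29 and lin-42, which held 39, 32 and 38 of the 174 peaks. Over the rest of the 10 genes the pooled intron share was below the 27.5% of all genes. Their upstream share was below the 36.1% of all genes. In replicate 1 introns held 77 of the 158 ranked peaks (48.7%, against 27.7% over all genes), and coding exons 38 (24.1%, against 31.4%). Upstream there were 24 (15.2%, against 35.9%), and in 3′ UTRs 16 (10.1%, against 2.93%). In replicate 2 introns held 76 of the 134 (56.7%, against 27.0%), and coding exons 21 (15.7%, against 31.8%). Upstream there were 24 (17.9%, against 36.2%), and in 3′ UTRs 12 (8.96%, against 3.01%).

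The 10 genes were long, and a longer window has more room for a peak. Their windows had a median of 7.58 kb (5.17 to 22.3 kb), against 4.03 kb for all protein-coding genes. Among windows of 10 kb or more, 3 of 3 of the genes (lin-14, lin-29 and lin-42) had a conservative peak, against 15.4% of all such genes. Among shorter windows it was 4 of 7 (nhl-2, puf-9, myrf-1 and lep-2), against 6.51%. Per 10 kb of window the 10 genes had 0.70 conservative summits, against 0.153 over all protein-coding genes, and 15.2 pooled ranked summits, against 9.98. With an IDR of 0.05 or less there were 1.31 pooled summits per 10 kb at the 10 genes and 0.477 over all. The conservative peaks helped to select the genes and are among the pooled summits counted. None of these differences is therefore a finding, with or without the split by window length.

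None of the 8 peaks had its summit within 200 bp of a tRNA, snoRNA or snRNA gene, whereas 28.4% of the 1537 conservative peaks did. In signal the 8 peaks ranked from 635 (nhl-2) to 1261 (lep-2) of 1537, with values between 75.7 and 96.1 with a median of 87.3, against a median of 90.6 for all conservative peaks and 84.8 for the 1101 away from those small RNA genes. Among those 1101, nhl-2 had rank 290, lin-29 rank 310 and lep-2 rank 849.

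Summits inside other annotated noncoding RNA genes were found at 4 of the 8 peaks (50%), against 16.9% of all conservative peaks and 6.81% of those away from the small RNA genes. The nhl-2 summit lay in F26F4.14 (149 bp), the myrf-1 promoter summit in F59B10.7 (540 bp), the puf-9 summit in W06B11.7 and W06B11.9 (181 and 177 bp, on opposite strands) and the lin-42 summit in F47F6.13 and F47F6.15 (78 and 143 bp, on opposite strands). All 6 of these noncoding genes overlap the windows printed above.

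The base composition of the 8 windows ranged widely. The GC content was 61.7% at lin-42, 58.7% at the myrf-1 promoter, 52.3% at nhl-2, 47.0% at puf-9, 45.7% at both lin-14 and the myrf-1 intron, 39.0% at lep-2 and 36.3% at lin-29. Their median of 46.3% was close to the median of 44.7% over all conservative summits, while the 300 bp upstream of all protein-coding genes had a median of 33.3%. The 4 peaks inside noncoding RNA genes were the 4 of highest GC content.

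**Figure D4:**
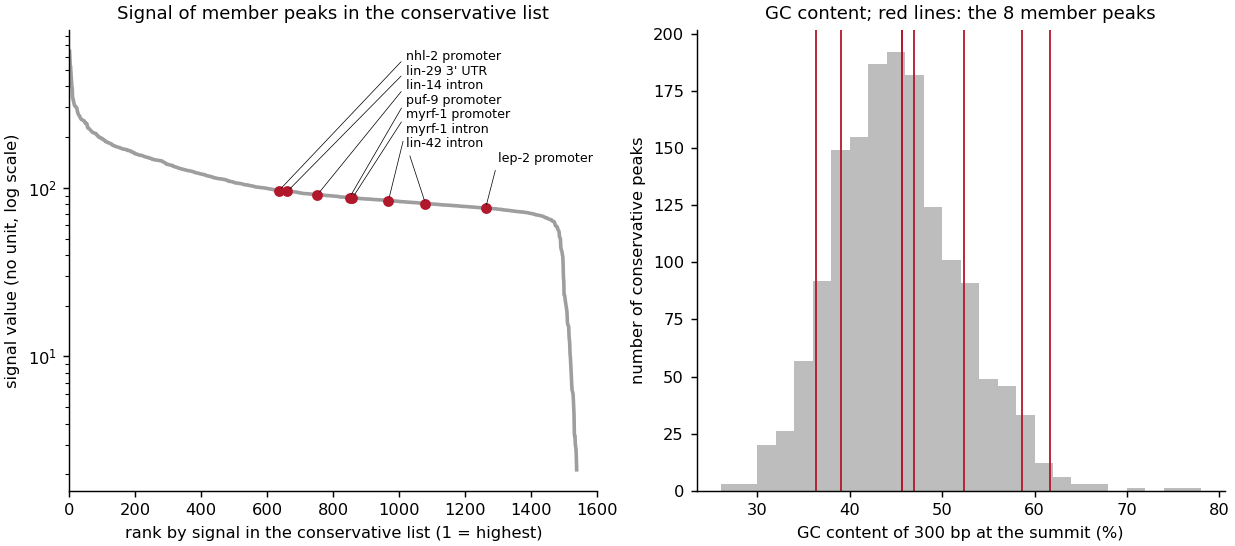
Left, signal (log scale, no unit) against signal rank for the 1537 conservative peaks as a grey line with the 8 peaks of the heterochronic genes as red points, from rank 635 (nhl-2) to 1261 (lep-2). Right, number of conservative peaks by GC content of the 300 bp at the summit, with red lines for the 8 peaks, from 36.3% (lin-29) to 61.7% (lin-42); the lines of lin-14 and the myrf-1 intron coincide at 45.7%.

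Motifs were searched on both strands of the 8 windows of 300 bp, and the matches found did not overlap each other. The core ACAATGT, known from DM domain proteins such as MAB-3, was in 0 of the 8, against 3.84% of the windows at all conservative summits and 5.28% of the promoter windows of all protein-coding genes. The repeat GAGAGA was in 4 of the 8, with 3 matches at the myrf-1 promoter, 2 at lin-42 and 1 each at nhl-2 and puf-9, against 30.1% of summit windows and 21.6% of promoter windows. The GC box CCGCCC was in 1 of the 8, nhl-2, against 13.0% of summit windows and 7.93% of promoter windows. The 4 windows with GAGAGA were the same 4 that had the highest GC content and a summit inside a noncoding RNA gene. How often these traits go together over all conservative summits was not computed, so this is a description of the 8 windows only. A match is a run of letters and not a measured site.

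A wider list of 31 timing genes and microRNAs was also placed, 25 of them protein-coding. It was chosen with earlier results of these data known, so its shares are a description only. Of the 25 protein-coding genes, 5 had a conservative peak (20%), namely lin-66, din-1, daf-12, kin-20 and sea-2, beside the 7.18% of all protein-coding genes, and of the 6 noncoding genes 0 had one. The 20% was not split by window length. Of all protein-coding genes with windows of 10 kb or more, 15.4% had a conservative peak. din-1, a corepressor of the DAF-12 nuclear receptor, had 2 upstream peaks with signals of 96.2 and 91.7 and was the only gene of this list with a peak in replicate 1's thresholded list. lin-66, which acts on lin-28, had an upstream peak at -468 bp with a signal of 98.1 and a pooled IDR of 0.00163. kin-20, the homologue of the casein kinase that acts with Period, had 2 intron peaks with signals of 85.5 and 80.0, and daf-12 had 1 intron peak with a signal of 69.9. The peak of sea-2, with a signal of 72.4 in the 3′ UTR, lay within 200 bp of a small RNA gene.

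The microRNA genes of the pathway had no conservative peak. The lowest pooled IDR was 0.0270 at let-7, 0.0702 at lin-4, 0.160 at mir-241, 0.210 at mir-48 and 0.696 at mir-84, and it was 0.0554 at the noncoding RNA gene lep-5. In replicates 1 and 2 the lowest IDR was 0.228 and 0.777 at let-7, 0.0157 and 0.492 at lin-4, and 0.553 and 0.0281 at lep-5. At mir-241, mir-48 and mir-84 it was above 0.05 in both replicates. The DM genes mab-3 and dmd-3 had a lowest pooled IDR of 0.167 and 0.162. At the looser limit of an IDR of 0.05 or less in the pooled ranked list, 14 of the 25 protein-coding genes of the wider list had a peak (56%), against 19.4% of all protein-coding genes, and of the noncoding genes only let-7 had one. The 56% was not split by window length either.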

How the data were processed

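ChIP-seq peak lists of 2 biological replicates of 1 group were used. The lists are on assembly ce11, per the labels. The authors called peaks in the separate replicates and in the combined data, with aligner and peak caller not given in the sources used here. Per the deposited notes, a control file was among the sources of the lists, and its data were not analysed here. The deposited signal of each peak (column 7) has no stated scale and was compared by rank within a list only. The deposited −log10 IDR of the ranked lists (column 12) was read as a score.

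Summits were placed on Ensembl release 115 genes of the same assembly, in the span or 2000 bp upstream, with the class set by precedence (promoter, then 5′ UTR, 3′ UTR, coding exon, noncoding exon and last intron). A promoter here is the 2000 bp upstream of the gene's 5′ end, positions are 1-based, and a summit in the windows of 2 genes counts for both. Of the microRNAs, 5 were matched by position in the RefSeq annotation. The 31 names of the wider list all matched. Shares are over 19973 nuclear protein-coding genes, and motif shares over promoters use the 300 bp upstream of each.

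The members, the wider list and the motifs were chosen with earlier results of these data known. Named were all members, every wider gene with a conservative peak, neighbours with a nearer 5′ end and noncoding genes at the summits; the other neighbours, the microRNAs and DM genes were named after their values were seen. With 1 group of 2 replicates no test was run, and no p-value is given. Counts were repeated with the optimal list, either replicate's list, a stricter signal limit, other distances, any overlap of 1 bp, other IDR limits and leaving out peaks at small RNA genes. The placement was tested on simulated data, with summits planted upstream, in coding exons, in introns or outside the window. Of these, 200 of 200 fell in their class. No summit was planted in a UTR or a noncoding exon, so the placing in those classes was not tested. Python 3.11.15, numpy 2.4.6, pandas 2.3.3, pysam 0.24.0 and matplotlib 3.10.9 were used.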

Additional observations from a re-analysis of the deposited data

How the results depend on the processing

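Of 50 alternative values, 31 were within 1.5 times the reported count or share and 19 moved further. Counts and shares have no direction, so none could reverse. With a single replicate's list in place of the conservative one, the genes with a peak numbered 0 to 2 in place of 7 (2 in replicate 1, nhl-2 and lin-14), their peaks 0 to 3 in place of 8, the genes with an upstream summit 0 to 1 in place of 4, the wider genes 0 to 1 in place of 5, and the share of all protein-coding genes was 2.55% to 2.88% in place of 7.18%. With each replicate's ranked list at an IDR of 0.05 or less, 3 to 5 of the 10 genes had a peak in place of 8. Keeping only conservative peaks above the median signal left 3 genes (nhl-2, lin-14 and lin-29), 3 peaks, 1 gene with an upstream summit, 2 wider genes and 3.61% of all genes. With 500 bp upstream, 2 genes had an upstream summit and nhl-2 and lep-2 had no peak; with 5000 bp the share of all genes was 10.8%. The optimal list lost lep-2 (6 genes), and in the wider list it held ain-1 and blmp-1 but not daf-12 or kin-20. The causes were not tested. No paired analysis was possible because there is 1 group. The absence of a peak at lin-28, lin-41 or hbl-1 is no measure of absence of the protein there, since depth is unknown, and a peak in whole worms gives neither its tissue nor any effect on the gene.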
